A study of Mus musculus with 9 samples.

Results

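The genes described here are 42 mouse genes of mitosis and the spindle, taken from a fixed list of symbols. The list holds cyclins and Cdk1, the mitotic kinases, the spindle checkpoint, kinetochore proteins, spindle motors and the proteins of the midzone and of cytokinesis, with the proliferation marker Mki67. All 42 symbols were found among the 46517 genes of the count tables, and all 42 passed the filter on low counts that left 14870 genes for testing. The rule that chose them uses gene symbols and no measured value.

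Cyclin B with Cdk1 drives cells into mitosis, where microtubules of the spindle attach to kinetochores, the protein plates on the centromeres. The spindle checkpoint holds back the anaphase-promoting complex, a ubiquitin ligase, until every kinetochore is attached. Cdc20 and Ube2c then let the ligase degrade cyclin B and securin, the sisters separate, and the midzone and contractile ring divide the cell. Most of these genes are transcribed mainly in G2 and M phase, so that their transcripts mark dividing cells. In the intestine such cells are the crypt base stem cells and, above all, the transit-amplifying cells.

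The cells were mouse intestinal stem cells (ISCs), dissociated, embedded in a gel and grown into colonies for 4 days. The 3 groups of 3 libraries differed by gel. They were a non-degradable hydrogel of polyethylene glycol (PEG), a degradable PEG hydrogel and Matrigel, a basement membrane extract of a mouse tumour. All groups received R-spondin, noggin, EGF, CHIR99021, which inhibits the kinase GSK3, and valproic acid, which inhibits histone deacetylases. All levels therefore refer to cells under these factors. The sources used here do not give strain, sex and age of the mice or composition and stiffness of the gels. Nothing in the labels states that the libraries of a matrix are separate cultures or animals, so p-values measure no more than the spread among the 3 libraries, which may be technical.

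Libraries held 38.0 to 47.2 M reads assigned to genes. Levels are counts per M reads (CPM), scaled between libraries by the trimmed mean of M values. Markers of the labelled cell type were present. All 12 epithelial markers of a fixed list, among them Lgr5, Epcam and Vil1, were tested genes, with summed levels of 6986 to 7915 CPM in non-degradable PEG, 7687 to 8394 CPM in degradable PEG and 7490 to 7621 CPM in Matrigel. Markers of mesenchyme summed to at most 9.51 CPM in any library, with Col3a1, Dcn, Lum and Thy1 at 0 in all of them. Those of smooth muscle summed to at most 0.569 CPM and those of endothelium to at most 0.316 CPM. The leucocyte marker Ptprc and the glial marker Sox10 were at 0 throughout.

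Mitotic genes were lower in non-degradable PEG than in Matrigel. Of the 42 genes, 34 were called lower and 0 higher (edgeR quasi-likelihood test, Benjamini-Hochberg adjusted p under 0.05), where 7.13% of all tested genes were called lower and 9.71% higher. The changes were small, with log2 fold changes from -0.53 for Kif22 to -0.17 for Anln and a median of -0.38, against 0 over all tested genes. All 42 were below 0, as were 50.4% of all tested genes. Of the 42, 2 were called lower and 0 higher in degradable PEG than in Matrigel, beside 4.79% and 7.42% of all tested genes, and the median was -0.20, against -0.02 over all tested genes. Between the PEG gels 0 of 42 were called, beside 0.464% of all tested genes lower and 0.814% higher (1.28% in all). At an unadjusted p under 0.05, 19 were lower and 0 higher there, beside 6.29% and 8.52% of all tested genes, and DESeq2 called 0. The median there was -0.18, against 0 over all tested genes. In bulk RNA, fewer dividing cells and less mitotic RNA per dividing cell cannot be told apart. The first count was 17 without Matrigel replicate 1, 17 without non-degradable PEG replicate 3 and 2 without both, with 30 to 40 under the settings that kept all libraries of the compared gels. Lower calls over all tested genes fell too, from 1060 of 14870 to 510 of 15104, 394 of 15083 and 238 of 15031 in those fits, in that order.

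**Figure D1:**
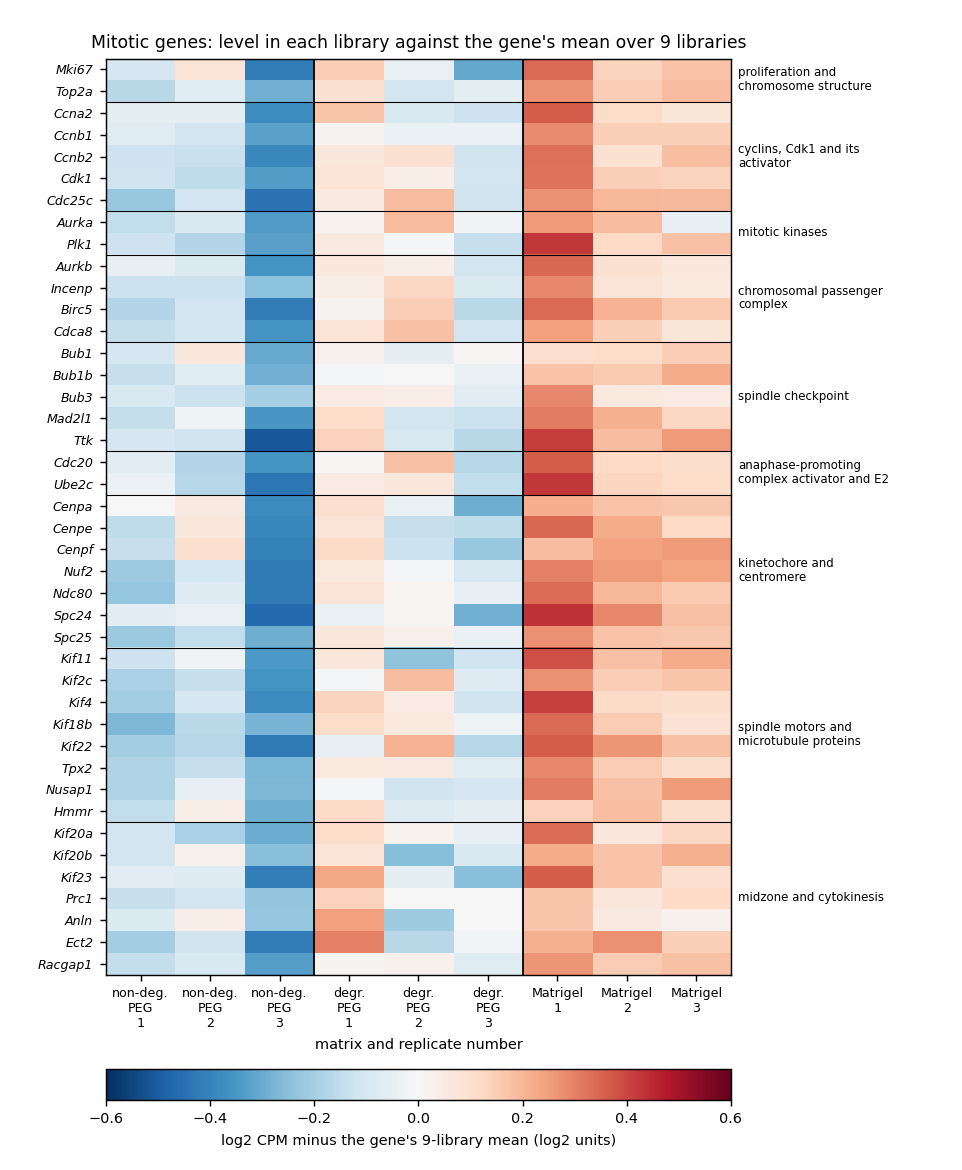
Each cell is the log2 CPM of 1 mitotic gene in 1 library minus the mean of that gene over the 9 libraries, with genes grouped by role and libraries by matrix. Blue is below and red above the mean; replicate 3 of non-degradable PEG is the lowest library for 41 of 42 genes and replicate 1 of Matrigel the highest for 36.

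The order of the means was the same for every one of the 42 genes, lowest in non-degradable PEG, between in degradable PEG and highest in Matrigel. That order was seen for 23% of all tested genes. The 3 comparisons share libraries, so these counts are not independent of one another. Per library, the mean log2 CPM over the 42 genes was 6.60, 6.66 and 6.39 in the non-degradable PEG libraries, 6.82, 6.74 and 6.63 in degradable PEG and 7.04, 6.90 and 6.88 in Matrigel. The libraries of non-degradable PEG and of Matrigel did not overlap, while degradable PEG replicate 3 lay below non-degradable PEG replicate 2. Reads of the 42 genes made up 0.452% to 0.571% of assigned reads in non-degradable PEG, 0.539% to 0.632% in degradable PEG and 0.658% to 0.717% in Matrigel.

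Promoters of many genes of G2 and M phase carry a cell cycle genes homology region (CHR), which the MuvB complex binds, together with CCAAT boxes, which NF-Y binds. With DREAM, MuvB represses such genes outside the cycle, and with B-Myb and Foxm1 it activates them before mitosis. As both motifs are known at cell cycle genes, the promoters of the 42 genes were searched for their letters. The 42 were chosen as genes of mitosis, so their motif shares describe the list and say nothing about the gels. RefSeq promoter sequences (GRCm38.p6, from 250 bases before to 50 after the annotated start) were available for 35 of the 42 genes, all but Ccna2, Cdc25c, Aurkb, Tpx2, Kif20a, Incenp and Spc24. For 25 of these 35 genes, bases just after the RefSeq start matched a GENCODE transcript of the same gene, and for the others they did not. The sequences of Ccnb2, Cdk1, Cdc20, Kif18b and Ttk belong to genes called lower in non-degradable PEG, and that of Hmmr to a gene that was not called. They were picked for a CCAAT box ahead of a CHR near the start, as examples of that layout. Capitals mark the CHR, TTTGAA or on the other strand TTCAAA, and the CCAAT box, CCAAT or ATTGG; each runs 5′ to 3′ along the gene's own strand from 100 bases before to 15 bases after the start. The intervals are chr9:70421540-70421654, minus strand, for Ccnb2 (cyclin B2), chr10:69352898-69353012, minus strand, for Cdk1, and chr4:118437329-118437443, minus strand, for Cdc20. For the kinesin gene Kif18b the interval is chr11:102925110-102925224, minus strand, for the checkpoint kinase gene Ttk chr9:83834589-83834703, plus strand, and for Hmmr chr11:40733423-40733537, minus strand.
Ccnb2: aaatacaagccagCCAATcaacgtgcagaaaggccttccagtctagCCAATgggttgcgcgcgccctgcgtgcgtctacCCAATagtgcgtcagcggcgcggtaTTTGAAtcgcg
Cdk1: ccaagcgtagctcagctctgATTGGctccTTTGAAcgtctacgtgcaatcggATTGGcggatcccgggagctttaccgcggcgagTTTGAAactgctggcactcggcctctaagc
Cdc20: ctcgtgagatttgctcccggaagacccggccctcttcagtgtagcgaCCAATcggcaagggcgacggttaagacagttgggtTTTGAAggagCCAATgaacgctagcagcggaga
Kif18b: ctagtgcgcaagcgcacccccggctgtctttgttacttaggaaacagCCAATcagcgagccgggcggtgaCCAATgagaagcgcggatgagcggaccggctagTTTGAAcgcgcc
Ttk: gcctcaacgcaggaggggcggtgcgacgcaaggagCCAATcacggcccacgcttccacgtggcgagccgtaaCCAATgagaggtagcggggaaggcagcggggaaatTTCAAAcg
Hmmr: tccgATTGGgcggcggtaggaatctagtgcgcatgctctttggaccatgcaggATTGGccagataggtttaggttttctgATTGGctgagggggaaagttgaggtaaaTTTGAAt

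A CHR (TTTGAA or TTTAAA, either strand) was found in 31 of the 35 promoters, or 88.6%, against 22.3% of the promoters of 10793 tested genes and 30.6% of all 27025 genes in the table. TTTGAA alone was in 80.0% of them, against 14.2% of the tested genes and 20.2% of all. A CCAAT box (CCAAT, either strand) was in 77.1%, against 42.9% of the tested genes and 41.1% of all, and 57.1% held at least 2, against 16.6% and 13.3%. Both motifs were present in 26 promoters, or 74.3%, against 9.15% and 12.2%. In 22 promoters, or 62.9%, a CHR began 5 to 45 bases downstream of the start of a CCAAT box, a spacing chosen after the positions were seen, against 2.33% of tested genes and 2.82% of all. Matches of both motifs shared a base in 1 case. Of 28 promoters of DNA replication genes, which are transcribed earlier in the cycle, 28.6% held a CHR, 60.7% a CCAAT box and 21.4% both. Mad2l1, Nusap1 and Nuf2 held neither motif in the window, and all 3 genes were called lower in non-degradable PEG than in Matrigel. A match is a run of letters and not a measured binding site.

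**Figure D2:**
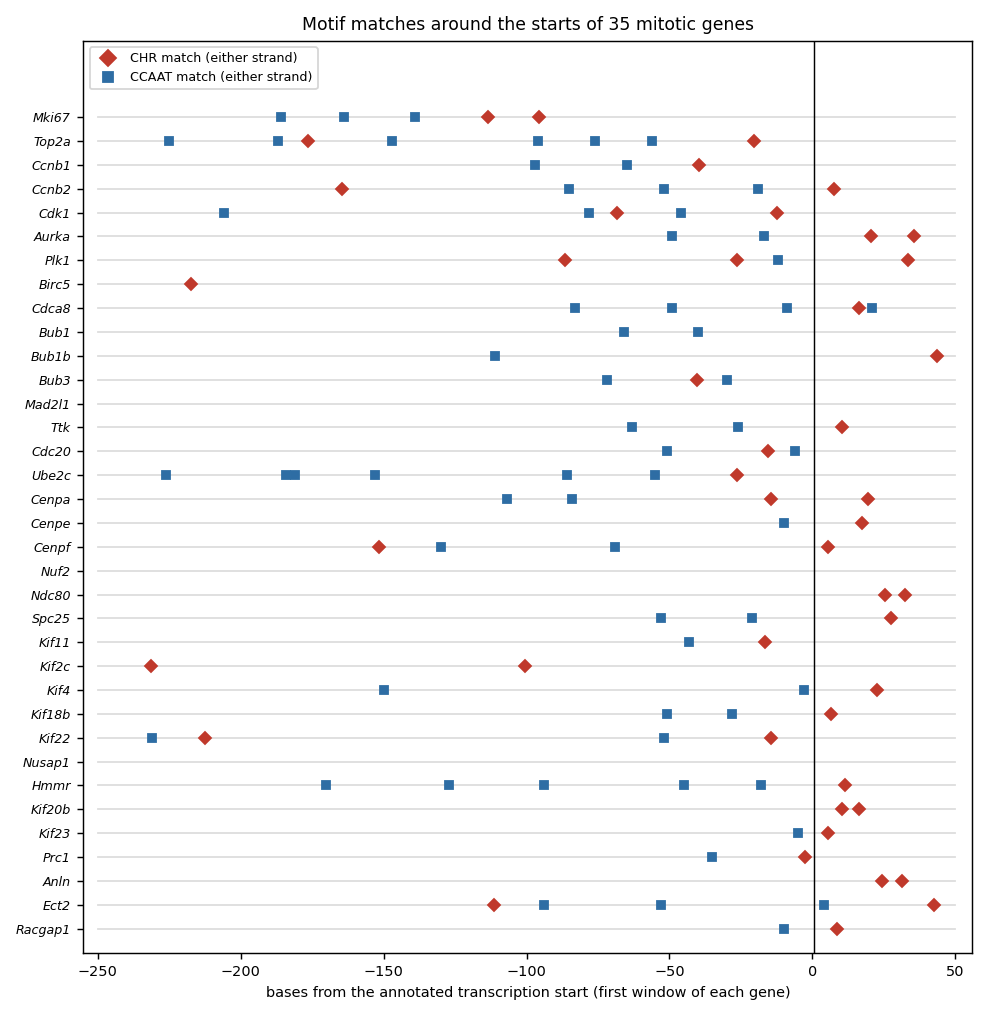
Positions of CHR (diamonds) and CCAAT (squares) matches on either strand around the annotated transcription start of 35 mitotic genes, in bases, with the start at the vertical line. Matches of CCAAT lie mostly before the start and many of CHR near it. Some CHR matches lie far upstream, such as -234 in Kif2c and -220 in Birc5. Of the 35 genes, 26 have both motifs.

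The genes differed in level by more than the matrices moved them. Per kilobase of exon, Mki67 had the highest level at 86.8 CPM per kb over the 9 libraries, followed by Top2a at 75.2, Ccnb2 at 68.6, Ccna2 at 63.3, Cdc20 at 59.3, Plk1 at 54.6 and Ube2c at 53.1 CPM per kb. The lowest were Ndc80 at 4.97 and Cdc25c at 5.23 CPM per kb. Exon length was the union of annotated exons, which understates genes with many rare exons.

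Mki67 encodes Ki-67, which coats mitotic chromosomes and is the usual stain for proliferation, and Top2a encodes the topoisomerase that untangles sister chromatids. Mki67 (ENSMUSG00000031004, chromosome 7, 135689784 to 135716361, minus strand, GRCm38) stood at 804, 913 and 644 CPM in non-degradable PEG, 955, 836 and 696 CPM in degradable PEG and 1091, 946 and 972 CPM in Matrigel. Its values in non-degradable PEG lay below those of Matrigel without overlap, yet the spread within the PEG gel was wide and the difference did not pass (log2 fold change -0.35 ± 0.136 SE, adjusted p = 0.0983). In degradable PEG it was -0.27 ± 0.136, adjusted p = 0.219 on the log2 scale against Matrigel. Top2a (ENSMUSG00000020914, chromosome 11, 98992943 to 99024189, minus strand) stood at 599, 640.2 and 550.3 CPM in non-degradable PEG, 716, 623 and 645 CPM in degradable PEG and 814, 745 and 764 CPM in Matrigel. It was lower in non-degradable PEG than in Matrigel (log2 fold change -0.38 ± 0.0799 SE, adjusted p = 0.00924), and in degradable PEG the 3 values also lay below Matrigel but did not pass (-0.23 ± 0.0798, adjusted p = 0.0892). Mki67 passed without non-degradable PEG replicate 2 (adjusted p = 0.049).

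Of the cyclins, Cdk1 and its activator, 4 of 5 were lower in non-degradable PEG than in Matrigel. Cdk1 (ENSMUSG00000019942, chromosome 10, 69335146 to 69352938, minus strand), the kinase that starts mitosis, stood at 145, 142 and 125 CPM in non-degradable PEG, 167, 162 and 146 CPM in degradable PEG and 198, 174 and 173 CPM in Matrigel. The 3 gels did not overlap, although the PEG gels came as close as 145 and 146 CPM. The difference from Matrigel passed for non-degradable PEG (log2 fold change -0.40 ± 0.0857 SE, adjusted p = 0.00937) and not for degradable PEG (-0.20 ± 0.0855, adjusted p = 0.162). Ccna2, cyclin A2, which acts from S phase to early mitosis, stood at 246, 246 and 198 CPM in non-degradable PEG, 287, 240.2 and 235 CPM in degradable PEG and 329, 276 and 269 CPM in Matrigel. Matrigel replicate 1 was well above all other libraries, and Ccna2 did not pass in non-degradable PEG (-0.34 ± 0.113, adjusted p = 0.06). The mitotic cyclins Ccnb1 and Ccnb2 were lower (-0.36 ± 0.0776, adjusted p = 0.0103 and -0.41 ± 0.0938, adjusted p = 0.0132). So was Cdc25c, which encodes a phosphatase that removes inhibitory phosphates from Cdk1, with 21.3 ± 2.39 CPM in non-degradable PEG and 29.7 ± 0.909 CPM in Matrigel (SD, n = 3 each; log2 fold change -0.48 ± 0.102 SE, adjusted p = 0.00969). The call of Ccnb2 ended when either Matrigel replicate 1 (adjusted p = 0.0567) or non-degradable PEG replicate 3 (0.0564) was left out. Ccna2 passed without degradable PEG replicate 1 (adjusted p = 0.037).

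Both mitotic kinases were lower in non-degradable PEG than in Matrigel. Plk1 (ENSMUSG00000030867, chromosome 7, 122159439 to 122169873, plus strand), polo-like kinase 1, which acts in centrosome maturation, chromosome attachment and cytokinesis, stood at 109, 105 and 94.7 CPM in non-degradable PEG, 123, 118 and 108 CPM in degradable PEG and 159, 129 and 134 CPM in Matrigel. Matrigel replicate 1 was the highest library, and non-degradable PEG did not overlap with Matrigel (log2 fold change -0.45 ± 0.0927 SE, adjusted p = 0.00769), while the PEG gels overlapped; in degradable PEG the values were also below Matrigel without passing (-0.28 ± 0.0925, adjusted p = 0.0777). Aurka, the centrosome and spindle kinase Aurora A, stood at 62.8, 65.2 and 54.9 CPM in non-degradable PEG, 70.5, 79.2 and 68.4 CPM in degradable PEG and 83.1, 79 and 67.2 CPM in Matrigel. Aurka was lower in non-degradable PEG (log2 fold change -0.33 ± 0.0975 SE, adjusted p = 0.0418), while in degradable PEG it overlapped with Matrigel (-0.07 ± 0.0972, adjusted p = 0.681). The call of Aurka ended without non-degradable PEG replicate 1 (0.0829), non-degradable PEG replicate 3 (0.164), Matrigel replicate 1 (0.149) or Matrigel replicate 2 (0.127), the adjusted p in brackets.

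All 4 genes of the chromosomal passenger complex were lower in non-degradable PEG than in Matrigel. This complex moves from centromeres, where its kinase Aurora B corrects wrong attachments, to the midzone. Incenp, its scaffold, stood at 138, 138 and 127 CPM in non-degradable PEG, 155, 164 and 142 CPM in degradable PEG and 184, 159 and 157 CPM in Matrigel. The values in non-degradable PEG lay below all others (log2 fold change -0.31 ± 0.0815 SE, adjusted p = 0.0239 against Matrigel), and degradable PEG overlapped with Matrigel (-0.12 ± 0.0814, adjusted p = 0.376). Cdca8, borealin, which helps target the complex to centromeres, stood at 101, 103 and 87.1 CPM in non-degradable PEG, 118, 126 and 103 CPM in degradable PEG and 132, 123 and 117 CPM in Matrigel. It was lower in non-degradable PEG than in Matrigel (log2 fold change -0.35 ± 0.0929 SE, adjusted p = 0.0248), with degradable PEG replicate 2 at the level of Matrigel. Birc5, survivin, had 70 ± 7.64 CPM in non-degradable PEG and 96.8 ± 6.41 CPM in Matrigel (SD, n = 3 each; log2 fold change -0.47 ± 0.1 SE, adjusted p = 0.00969), and Aurkb, the kinase, 91.7 ± 10.4 CPM in non-degradable PEG and 115 ± 12.7 CPM in Matrigel (log2 fold change -0.33 ± 0.101 SE, adjusted p = 0.046). The call of Aurkb was close to the threshold and ended without non-degradable PEG replicate 1 (0.057), non-degradable PEG replicate 2 (0.0632), non-degradable PEG replicate 3 (0.175), Matrigel replicate 1 (0.171), Matrigel replicate 2 (0.0731) or Matrigel replicate 3 (0.0544). That of Incenp ended without non-degradable PEG replicate 1 (0.055), non-degradable PEG replicate 3 (0.1) or Matrigel replicate 1 (0.0948), and that of Cdca8 without non-degradable PEG replicate 3 (0.105), Matrigel replicate 1 (0.0916) or Matrigel replicate 2 (0.068).

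Spindle checkpoint genes were lower in non-degradable PEG for 4 of 5. Bub1b, BubR1, a part of the complex that inhibits Cdc20, stood at 130, 136 and 117 CPM in non-degradable PEG, 142, 143 and 139 CPM in degradable PEG and 161, 159.7 and 167 CPM in Matrigel. Values within each gel were close together and the 3 gels did not overlap (log2 fold change -0.35 ± 0.0688 SE, adjusted p = 0.00642 for non-degradable PEG against Matrigel; -0.20 ± 0.0687, adjusted p = 0.087 for degradable PEG). Bub3, its partner, stood at 125, 122 and 116 CPM in non-degradable PEG, 138, 137 and 127 CPM in degradable PEG and 163, 139 and 138 CPM in Matrigel. It was lower in non-degradable PEG by a smaller amount (log2 fold change -0.28 ± 0.077 SE, adjusted p = 0.032), and Matrigel replicate 1 stood above the other libraries. Ttk, the kinase Mps1 that starts checkpoint signalling at kinetochores, had one of the larger differences with 44.2 ± 6.64 CPM in non-degradable PEG and 63.3 ± 5.27 CPM in Matrigel (SD, n = 3 each; log2 fold change -0.52 ± 0.118 SE, adjusted p = 0.013). Mad2l1, Mad2, which binds and holds Cdc20, was lower as well (-0.38 ± 0.0957, adjusted p = 0.02). Bub1, the kinase that recruits these proteins, did not pass (-0.22 ± 0.0847, adjusted p = 0.0907), although its values of 73.2, 82 and 63.7 CPM in non-degradable PEG were all below the lowest of 84 CPM in Matrigel. Bub1 passed without non-degradable PEG replicate 2 (adjusted p = 0.0269). Leaving out 1 library ended the call of Bub3 for non-degradable PEG replicate 1 (0.063), non-degradable PEG replicate 2 (0.0687), non-degradable PEG replicate 3 (0.122) or Matrigel replicate 1 (0.119), that of Mad2l1 for non-degradable PEG replicate 1 (0.0523), non-degradable PEG replicate 3 (0.0839), Matrigel replicate 1 (0.0776) or Matrigel replicate 2 (0.0599) and that of Ttk for Matrigel replicate 1 (0.0531).

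Cdc20, the activator of the anaphase-promoting complex, and Ube2c, its ubiquitin-conjugating enzyme, were both lower in non-degradable PEG than in Matrigel. Cdc20 (ENSMUSG00000006398, chromosome 4, 118432901 to 118437352, minus strand) stood at 105, 97 and 85.5 CPM in non-degradable PEG, 110.4, 124 and 97.6 CPM in degradable PEG and 141, 119 and 118 CPM in Matrigel. The value of 124 CPM in degradable PEG replicate 2 was inside the range of Matrigel, and the values in non-degradable PEG were below it (log2 fold change -0.40 ± 0.108 SE, adjusted p = 0.0291). Ube2c (ENSMUSG00000001403, chromosome 2, 164769898 to 164778822, plus strand) stood at 133, 121 and 101 CPM in non-degradable PEG, 141, 143 and 123 CPM in degradable PEG and 183, 149 and 147 CPM in Matrigel. Non-degradable PEG did not overlap with Matrigel (log2 fold change -0.43 ± 0.116 SE, adjusted p = 0.0274) and the PEG gels overlapped, with 101 CPM in non-degradable PEG replicate 3 and 183 CPM in Matrigel replicate 1 at the ends. In the annotation 22.8% of the exon bases of Ube2c overlap Tnnc2, a gene on the other strand, and the share of reads this affects was not tested. The call of Cdc20 ended without non-degradable PEG replicate 2 (0.0599), non-degradable PEG replicate 3 (0.118), Matrigel replicate 1 (0.11) or Matrigel replicate 2 (0.0527), and that of Ube2c without non-degradable PEG replicate 2 (0.0539), non-degradable PEG replicate 3 (0.104) or Matrigel replicate 1 (0.105).

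Of 7 kinetochore and centromere genes, 5 were lower in non-degradable PEG than in Matrigel. They include all 4 subunits of the Ndc80 complex, the link between kinetochore and microtubule, with Nuf2 and Ndc80 on the microtubule side and Spc24 and Spc25 on the chromosome side. Spc25 (ENSMUSG00000005233, chromosome 2, 69193895 to 69206194, minus strand) stood at 41.7, 43.9 and 39.7 CPM in non-degradable PEG, 51.1, 49.8 and 47.3 CPM in degradable PEG and 58.9, 54.8 and 54.4 CPM in Matrigel. It had the smallest p of the 42 genes (log2 fold change -0.42 ± 0.0688 SE, adjusted p = 0.00216), and the 3 gels did not overlap. Nuf2 (ENSMUSG00000026683, chromosome 1, 169497934 to 169531464, minus strand) stood at 54.8, 59.2 and 47.5 CPM in non-degradable PEG, 66.3, 63.3 and 59.6 CPM in degradable PEG and 78.5, 76.1 and 75 CPM in Matrigel. The gels did not overlap here either (log2 fold change -0.51 ± 0.0835 SE, adjusted p = 0.00231 for non-degradable PEG against Matrigel; -0.28 ± 0.0832, adjusted p = 0.0516 for degradable PEG, just over the threshold). Ndc80 was lower, with 27.1 ± 3.17 CPM in non-degradable PEG and 37.5 ± 2.43 CPM in Matrigel (SD, n = 3 each; log2 fold change -0.47 ± 0.0933 SE, adjusted p = 0.0066). Spc24 stood at 25.5, 25.8 and 19.3 CPM in non-degradable PEG, 25.8, 26.9 and 21.8 CPM in degradable PEG and 36, 32.5 and 30.1 CPM in Matrigel. Both PEG gels were below Matrigel for Spc24, which passed in non-degradable PEG (log2 fold change -0.48 ± 0.125 SE, adjusted p = 0.0236) and not in degradable PEG (-0.40 ± 0.125, adjusted p = 0.058), and the PEG gels overlapped. The call of Spc24 ended without non-degradable PEG replicate 3 (0.0839), Matrigel replicate 1 (0.0874) or Matrigel replicate 2 (0.0635).

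Of the large kinetochore proteins and the centromeric histone, 1 of 3 was called. Cenpe, a kinesin that carries chromosomes to the spindle equator, stood at 112, 130.1 and 94.8 CPM in non-degradable PEG, 131, 113 and 112 CPM in degradable PEG and 158, 145 and 135 CPM in Matrigel. Cenpe was lower in non-degradable PEG than in Matrigel (log2 fold change -0.38 ± 0.112 SE, adjusted p = 0.0418), but leaving out any of non-degradable PEG replicate 1 (0.102), non-degradable PEG replicate 3 (0.152), Matrigel replicate 1 (0.143), Matrigel replicate 2 (0.101) or Matrigel replicate 3 (0.0516) ended the call. Cenpf, a large protein of the outer kinetochore, stood at 147, 173 and 122 CPM in non-degradable PEG, 175, 148 and 138 CPM in degradable PEG and 184, 191 and 193 CPM in Matrigel. Replicate 2 of non-degradable PEG was well above replicate 3, and the difference did not pass (-0.36 ± 0.121, adjusted p = 0.0598). It passed without non-degradable PEG replicate 2 (adjusted p = 0.0171) and without degradable PEG replicate 1 (0.0358). Cenpa, the histone H3 variant that marks centromeres, stood at 110.3, 114 and 84.5 CPM in non-degradable PEG, 118, 107 and 89.7 CPM in degradable PEG and 128, 124 and 123 CPM in Matrigel. It had the second largest p of the 42 in this comparison (-0.28 ± 0.119, adjusted p = 0.128) and the largest between the PEG gels (-0.03 ± 0.119, adjusted p = 0.929).

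Spindle motors and microtubule proteins were lower in non-degradable PEG for 7 of 8 genes. Kif11, Eg5, the kinesin that pushes spindle poles apart, stood at 200.2, 215 and 172 CPM in non-degradable PEG, 229, 185 and 201 CPM in degradable PEG and 286, 247 and 255 CPM in Matrigel. Both PEG gels were lower than Matrigel (log2 fold change -0.42 ± 0.103 SE, adjusted p = 0.0175 for non-degradable PEG; log2 fold change -0.36 ± 0.103 SE, adjusted p = 0.0431 for degradable PEG), and the PEG gels overlapped (-0.06 ± 0.103, adjusted p = 0.799). Tpx2, which activates Aurora A and nucleates spindle microtubules, stood at 127, 131 and 119 CPM in non-degradable PEG, 150.2, 149.6 and 137 CPM in degradable PEG and 176, 160.2 and 155 CPM in Matrigel. The values within each gel were close and the gels did not overlap (log2 fold change -0.38 ± 0.0735 SE, adjusted p = 0.0056 for non-degradable PEG, -0.17 ± 0.0733, adjusted p = 0.16 for degradable PEG). Nusap1 (ENSMUSG00000027306, chromosome 2, 119618298 to 119651244, plus strand), which bundles microtubules near chromosomes, stood at 85.5, 94.1 and 80.8 CPM in non-degradable PEG, 96.5, 89.5 and 90.9 CPM in degradable PEG and 120.4, 109.9 and 116 CPM in Matrigel. It was lower than in Matrigel in both PEG gels (log2 fold change -0.41 ± 0.0729 SE, adjusted p = 0.00357 for non-degradable PEG; -0.32 ± 0.0728, adjusted p = 0.0153 for degradable PEG), which overlapped with each other. In non-degradable PEG the call of Kif11 ended without non-degradable PEG replicate 3 (0.0722) or Matrigel replicate 1 (0.0721).

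Kif18b and Kif2c, kinesins that shorten microtubules, were lower in non-degradable PEG than in Matrigel, with no overlap between the PEG gels. Kif18b (ENSMUSG00000051378, chromosome 11, 102905529 to 102925124, minus strand) stood at 44.1, 47.5 and 43.8 CPM in non-degradable PEG, 57.4, 55.4 and 52 CPM in degradable PEG and 67.3, 59.1 and 56.5 CPM in Matrigel. Its values in non-degradable PEG were below all others (log2 fold change -0.43 ± 0.0803 SE, adjusted p = 0.00453 against Matrigel), and its difference between the PEG gels had the smallest p of the 42 without passing (-0.28 ± 0.0805, adjusted p = 0.138). Kif2c, MCAK, stood at 54.3, 56.4 and 48.5 CPM in non-degradable PEG, 61.7, 70.7 and 58.9 CPM in degradable PEG and 75, 68.8 and 69.6 CPM in Matrigel. Kif2c was lower in non-degradable PEG than in Matrigel (log2 fold change -0.42 ± 0.0859 SE, adjusted p = 0.00733), while degradable PEG overlapped with Matrigel (-0.16 ± 0.0856, adjusted p = 0.267). Kif22, a chromosome-bound kinesin, had the largest difference of the 42, with 63.9 ± 5.87 CPM in non-degradable PEG and 92.6 ± 6.04 CPM in Matrigel (SD, n = 3 each; log2 fold change -0.53 ± 0.104 SE, adjusted p = 0.00587). Kif4, another chromosome-bound kinesin, was lower (-0.44 ± 0.105, adjusted p = 0.016), a call that ended without non-degradable PEG replicate 3 (0.0708) or Matrigel replicate 1 (0.0635). Hmmr, a spindle protein that binds microtubules, did not pass (-0.27 ± 0.0872, adjusted p = 0.057). It passed without non-degradable PEG replicate 2 (adjusted p = 0.0201), degradable PEG replicate 1 (0.0401) or degradable PEG replicate 2 (0.0474).

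Of 7 genes of the midzone and cytokinesis, 5 were lower in non-degradable PEG than in Matrigel. Ect2, the exchange factor that activates RhoA at the cleavage site, stood at 202, 215 and 175 CPM in non-degradable PEG, 288, 208 and 231 CPM in degradable PEG and 271, 283 and 258 CPM in Matrigel. In degradable PEG replicate 1 it reached 288 CPM, above every Matrigel library, and in non-degradable PEG it was below Matrigel throughout (log2 fold change -0.46 ± 0.115 SE, adjusted p = 0.021). Racgap1, a subunit of the centralspindlin complex, stood at 138, 143 and 121 CPM in non-degradable PEG, 154, 155 and 145 CPM in degradable PEG and 183, 169.5 and 172 CPM in Matrigel. The 3 gels did not overlap (log2 fold change -0.38 ± 0.0755 SE, adjusted p = 0.00636 for non-degradable PEG, -0.21 ± 0.0754, adjusted p = 0.102 for degradable PEG). Prc1, the cross-linker of antiparallel microtubules in the midzone, stood at 123, 125 and 115 CPM in non-degradable PEG, 149, 135 and 135 CPM in degradable PEG and 152, 142 and 147 CPM in Matrigel. Prc1 was lower in non-degradable PEG than in Matrigel (log2 fold change -0.28 ± 0.0679 SE, adjusted p = 0.0178) and overlapped between degradable PEG and Matrigel (-0.07 ± 0.0678, adjusted p = 0.539). The call of Prc1 ended without non-degradable PEG replicate 3 (0.0845) or Matrigel replicate 1 (0.0683), and that of Ect2 without non-degradable PEG replicate 1 (0.0519), non-degradable PEG replicate 3 (0.0871), Matrigel replicate 1 (0.0587) or Matrigel replicate 2 (0.0729).

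Of the other midzone genes, 2 of 4 were called. Kif20b, a kinesin of late cytokinesis, stood at 105, 116 and 95.7 CPM in non-degradable PEG, 120.1, 95.2 and 107 CPM in degradable PEG and 133, 128 and 132 CPM in Matrigel. It was lower in non-degradable PEG than in Matrigel (log2 fold change -0.31 ± 0.0926 SE, adjusted p = 0.0403) and overlapped between the PEG gels (-0.03 ± 0.0927, adjusted p = 0.91). Anln, anillin, the scaffold of the contractile ring, stood at 101, 110 and 91.2 CPM in non-degradable PEG, 127, 92.3 and 107 CPM in degradable PEG and 120.1, 111 and 109 CPM in Matrigel. It was the only gene of the 42 whose values in non-degradable PEG overlapped with Matrigel (-0.17 ± 0.11, adjusted p = 0.31), and it had the largest p in degradable PEG as well (-0.06 ± 0.11, adjusted p = 0.768). Kif20a, a midzone kinesin that docks Plk1, was lower (-0.38 ± 0.0856, adjusted p = 0.0119), and Kif23, the motor of centralspindlin, was not called (-0.39 ± 0.13, adjusted p = 0.0586) with 93.4 ± 12.2 CPM in non-degradable PEG and 123 ± 12 CPM in Matrigel (SD, n = 3 each). Kif20a lost its call without non-degradable PEG replicate 3 (0.0562). That of Kif20b ended without non-degradable PEG replicate 1 (0.101), non-degradable PEG replicate 3 (0.159), degradable PEG replicate 3 (0.052), Matrigel replicate 1 (0.108), Matrigel replicate 2 (0.086) or Matrigel replicate 3 (0.0902). Kif23 passed without degradable PEG replicate 1 (0.0256) or replicate 3 (0.042).

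**Figure D3:**
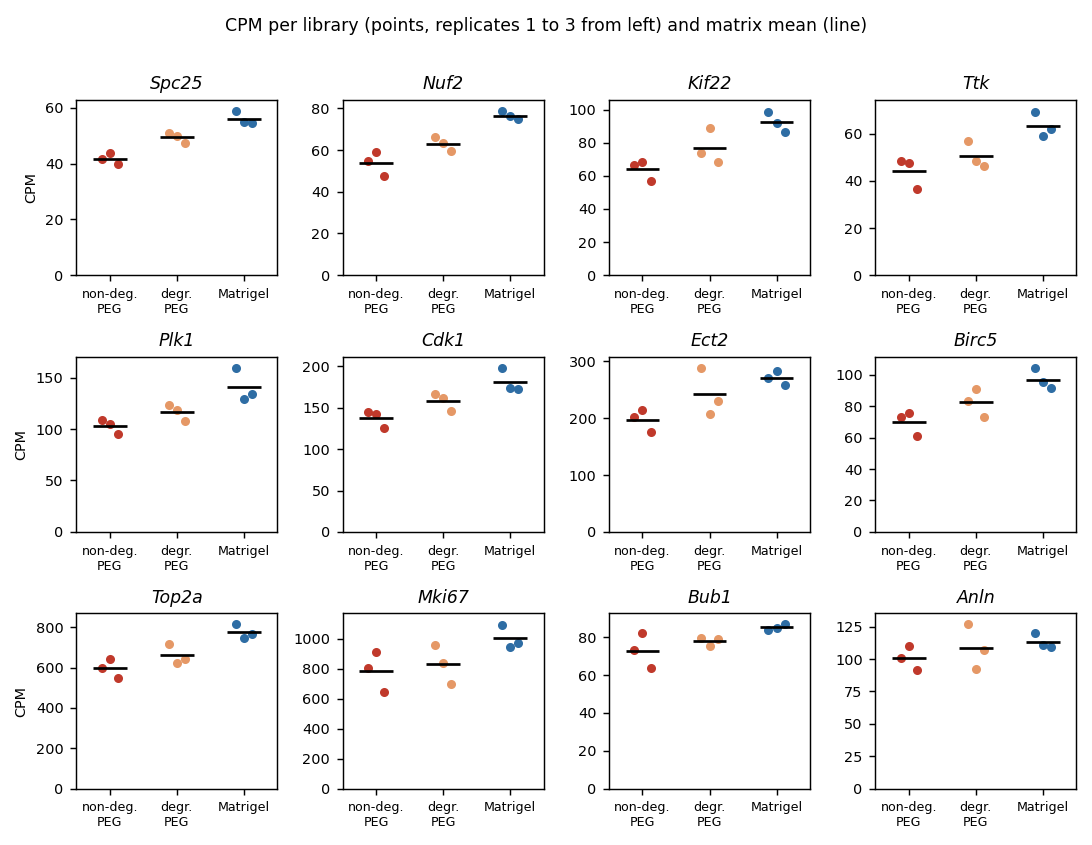
CPM per library (points) and mean per matrix (line) for 12 of the mitotic genes on axes that start at 0, with non-degradable PEG, degradable PEG and Matrigel from left to right in each panel. Spc25 and Nuf2 do not overlap between gels, and Anln overlaps between all 3.

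In all, 41 of the 42 genes had 3 values in non-degradable PEG below all 3 in Matrigel, as did 21.6% of all tested genes, and 41 had an unadjusted p under 0.05, as did 15.3% in this direction. The 8 genes without a call were Mki67, Ccna2, Bub1, Cenpa, Cenpf, Hmmr, Kif23 and Anln. With all libraries kept, Ccna2, Kif23, Cenpf and Hmmr were called lower with no filter (adjusted p = 0.0121, 0.00768, 0.0102 and 0.0333), with DESeq2 and in a fit of both gels only, and Mki67 with no filter (0.0184). The 34 calls covered each of the 9 role classes. Standard errors of the 42 fold changes had a median of 0.0935 on the log2 scale. Of the 34, 16 were called under each of the 16 alternatives planned for this comparison. They were Top2a, Cdk1, Ccnb1, Cdc25c, Plk1, Birc5, Bub1b, Nuf2, Ndc80, Spc25, Kif18b, Kif2c, Kif22, Tpx2, Nusap1 and Racgap1. All 42 fold changes stayed below 0 under each of 17 alternatives.

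**Figure D4:**
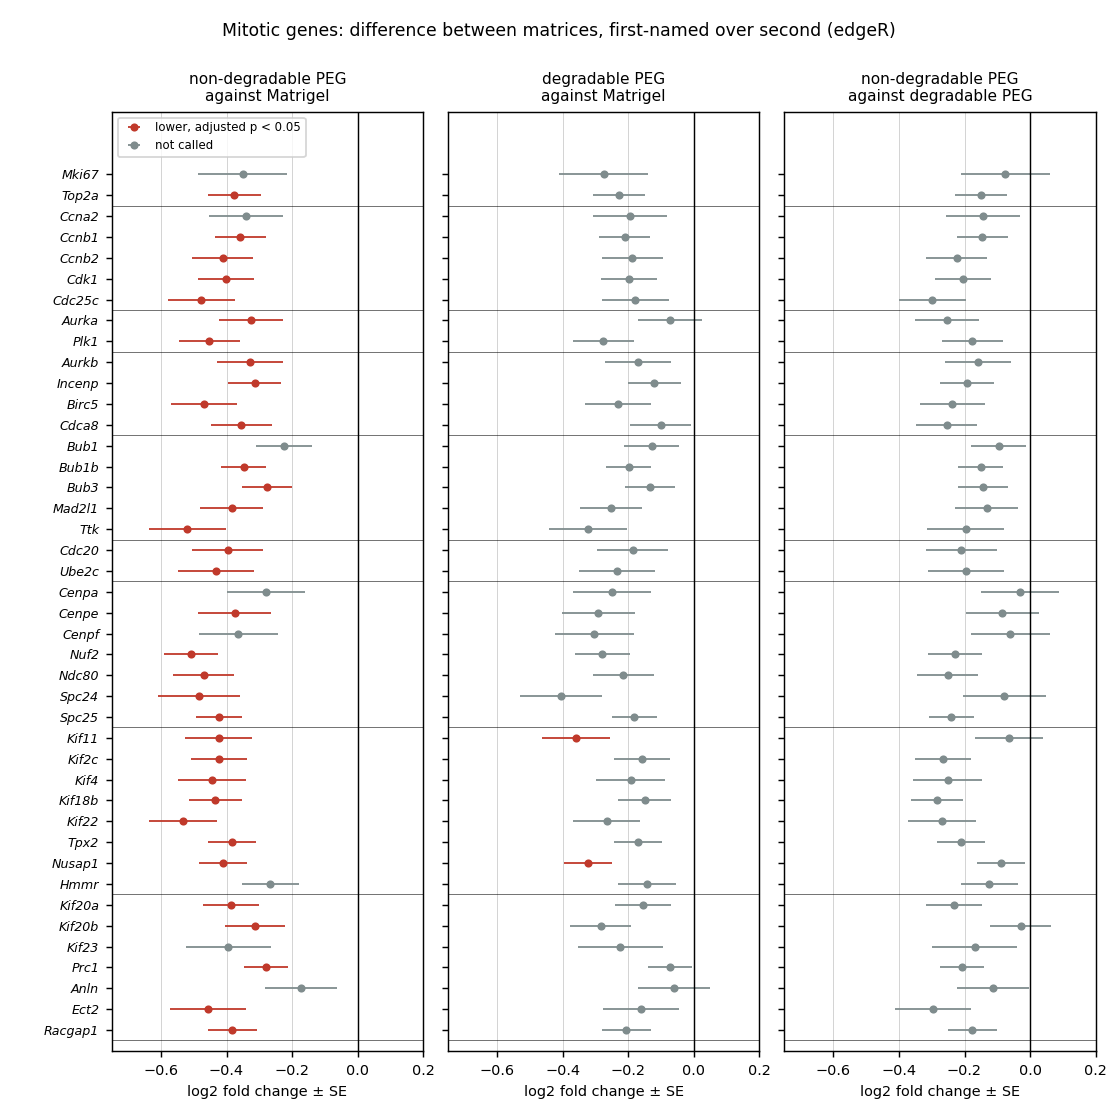
Log2 fold change with its standard error for each of the 42 mitotic genes, for non-degradable PEG against Matrigel, degradable PEG against Matrigel and non-degradable PEG against degradable PEG. Red points are called lower (34, 2 and 0 genes), grey points are not called, and all points lie left of 0.

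Against Matrigel, degradable PEG gave 2 calls, Nusap1 and Kif11, described above. Another 18 genes had an unadjusted p under 0.05, so that 20 of 42 fell under that threshold, as did 12.7% of all tested genes in this direction. Values did not overlap, with degradable PEG the lower, for 26 of 42 genes, against 14.8% of all tested genes. They included all 7 kinetochore and all 5 checkpoint genes, 3 of the 8 spindle motors and microtubule proteins and 2 of the 7 midzone genes. The next smallest adjusted p-values were those of Nuf2 (0.0516) and Spc24 (0.058), and the largest those of Anln (0.768) and Aurka (0.681). Both calls were lost when single libraries were left out. That of Nusap1 ended without degradable PEG replicate 3 (0.0548), Matrigel replicate 1 (0.069) or Matrigel replicate 3 (0.055) and that of Kif11 without non-degradable PEG replicate 1 (0.0693), degradable PEG replicate 2 (0.122), degradable PEG replicate 3 (0.117), Matrigel replicate 1 (0.162), Matrigel replicate 2 (0.0712) or Matrigel replicate 3 (0.089). The count rose to 5 without non-degradable PEG replicate 3 and to 8 without degradable PEG replicate 1, fits that called 709 of 15083 and 1108 of 15118 tested genes lower. Under the settings that kept all libraries of both gels it ran from 1 to 13. The highest came with the replicate block, which called 1231 of 14870 tested genes lower, against 712 in the main fit.

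Between non-degradable and degradable PEG, all 42 fold changes were below 0, as for 49.3% of all tested genes, and none passed. Adjusted p-values ran from 0.138 to 0.929. After Kif18b, the smallest were those of Spc25 (-0.24 ± 0.0689, adjusted p = 0.141), Kif2c (-0.27 ± 0.0861, adjusted p = 0.195) and Prc1 (-0.21 ± 0.068, adjusted p = 0.197). The largest were those of Cenpa (0.929) and Kif20b (0.91). Non-degradable PEG lay below degradable PEG without overlap for 16 of 42 genes, against 9.02% of all tested genes. A test over the 3 matrices called 25 of the 42, against 16.3% of all tested genes. That count was 6, 12 and 13 without Matrigel replicate 1, 2 or 3 and 15 and 13 without non-degradable PEG replicate 1 or 3.

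Within a gel, the 42 genes deviated together from library to library. In non-degradable PEG replicate 3, 0 of 42 genes were above the mean of their own gel, beside 37 and 42 in replicates 1 and 2. In degradable PEG the numbers were 39, 25 and 1 in replicates 1 to 3, and in Matrigel 38, 4 and 6. The median deviation from the gel's own mean was -0.16 on the log2 scale in non-degradable PEG replicate 3 and 0.1 in Matrigel replicate 1, and the difference between these gels had a median of -0.38. Mitochondrially encoded genes, a sign of RNA quality or cell state, took 3.92%, 4.15% and 4.51% of assigned reads in the non-degradable PEG libraries, 3.20%, 3.71% and 4.41% in degradable PEG and 3.00%, 3.05% and 3.99% in Matrigel. In each of the 3 gels, replicate 3 had the lowest mean mitotic level and the highest mitochondrial share. Reads with several alignments numbered 66.0 to 68.8 per 100 assigned reads in non-degradable PEG, 65.2 to 69.4 in degradable PEG and 70.1 to 71.8 in Matrigel. Blood cell markers summed to 4.39 to 6.18 CPM in non-degradable PEG, 3.94 to 4.20 CPM in degradable PEG and 2.57 to 3.10 CPM in Matrigel, with Itgam called higher in non-degradable PEG (1.22 ± 0.212, adjusted p = 0.00311). Those of glia and neurons summed to 1.44 to 1.85, 1.66 to 2.68 and 2.63 to 3.66 CPM in the same order of gels, with Tubb3 called lower than in Matrigel (-2.59 ± 0.446, adjusted p = 0.00305 in non-degradable PEG; -1.83 ± 0.415, adjusted p = 0.0154 in degradable PEG). Of the 12 epithelial markers, 2 were called lower and 4 higher in non-degradable PEG, and 1 lower and 6 higher in degradable PEG, each against Matrigel. Among those of stem cells, Smoc2 was lower in both PEG gels (-0.75 ± 0.0725, adjusted p = 0.000142 in non-degradable PEG; -0.49 ± 0.0723, adjusted p = 0.00146 in degradable PEG) and Ascl2 was higher in both (0.76 ± 0.111, adjusted p = 0.00117; 0.92 ± 0.111, adjusted p = 0.000484). Olfm4 was lower in non-degradable PEG (-1.23 ± 0.279, adjusted p = 0.0129) and did not pass in degradable PEG (-0.78 ± 0.275, adjusted p = 0.0916). Lgr5 passed in neither gel (0.02 ± 0.131, adjusted p = 0.927; -0.33 ± 0.131, adjusted p = 0.127). The keratin gene Krt19 was higher in both (0.68 ± 0.103, adjusted p = 0.00137; 0.62 ± 0.103, adjusted p = 0.00265). The part of these measures and markers in the mitotic result was not tested.

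**Figure D5:**
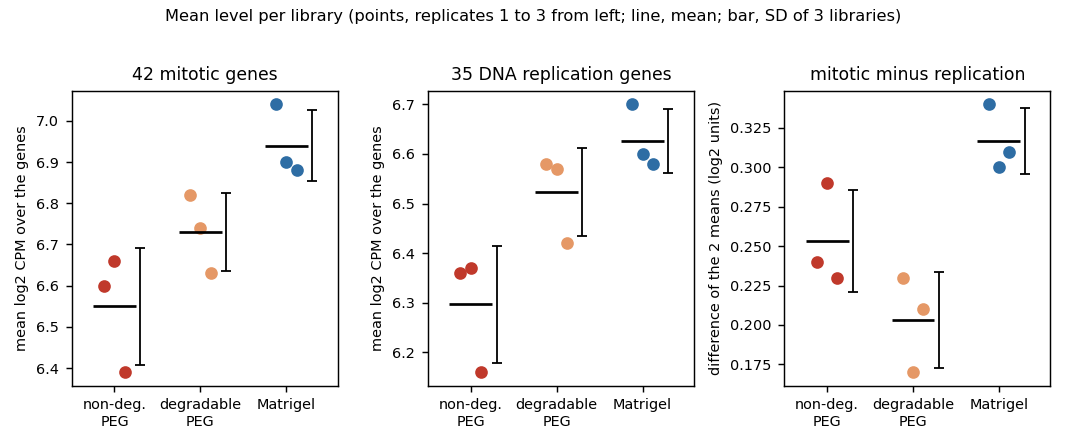
Mean log2 CPM per library over the 42 mitotic genes, over 35 DNA replication genes, and the difference of both means, for non-degradable PEG, degradable PEG and Matrigel; lines are means and bars the SD of 3 libraries. The axes are log2 levels and do not start at 0. Both gene groups are lowest in non-degradable PEG and highest in Matrigel, and the difference is 0.23 to 0.29, 0.17 to 0.23 and 0.30 to 0.34 in those 3 gels.

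Further genes of the same processes, outside the 42, were also lower in non-degradable PEG than in Matrigel. Of 35 further centromere and kinetochore genes, 17 were lower and 0 higher, beside 7.13% of all tested genes lower, with a median log2 fold change of -0.33. Knstrn, which helps separate sister chromatids (-0.41 ± 0.0721, adjusted p = 0.0033), and Nsl1, a subunit of the Mis12 complex (-0.51 ± 0.0925, adjusted p = 0.00409), had the smallest p-values. Both were lower in degradable PEG as well, -0.27 ± 0.072, adjusted p = 0.0344 for Knstrn and -0.31 ± 0.0921, adjusted p = 0.0482 for Nsl1. Of 31 further spindle, centrosome and cytokinesis genes, 15 were lower and 0 higher, with a median of -0.32. Stmn1, stathmin, which destabilises microtubules, had 52.8 ± 8.18 CPM in non-degradable PEG and 86.5 ± 2.86 CPM in Matrigel (SD, n = 3 each; log2 fold change -0.71 ± 0.119 SE, adjusted p = 0.00258), and the kinesin gene Kifc1 was lower too (-0.43 ± 0.0797, adjusted p = 0.00467). Of 18 condensin and cohesin genes, 8 were lower and 0 higher, with a median of -0.28, led by Cdca5, sororin (-0.50 ± 0.0864, adjusted p = 0.00295), and the condensin subunit Ncaph (-0.32 ± 0.0608, adjusted p = 0.00511). In degradable PEG 2 of 35, 1 of 31 and 3 of 18 genes of these lists were lower than in Matrigel and 0 higher, beside 4.79% of all tested genes lower. The first and second of these counts are near that share and are no result about their lists. Genes called there were Numa1, which focuses spindle poles (-0.33 ± 0.0924, adjusted p = 0.0414), the cohesin subunit Stag2 (-0.37 ± 0.0956, adjusted p = 0.0265) and the condensin subunit Smc4 (-0.33 ± 0.0856, adjusted p = 0.0269). Leaving out 1 library gave 3 to 20, 5 to 17 and 4 to 13 for the 3 counts in non-degradable PEG, while lower calls over all tested genes ran from 394 to 1527. The first and second counts were lowest without non-degradable PEG replicate 3. The last was lowest without that library, Matrigel replicate 1 or Matrigel replicate 2 alike. For degradable PEG these counts were 0 without Matrigel replicate 1 and at most 2, 9 and 6 without another library. Leaving out 1 library ended the degradable PEG calls of Knstrn, Nsl1, Numa1, Stag2 and Smc4 in 6, 8, 7, 4 and 5 of 9 fits, with adjusted p-values up to 0.123, 0.176, 0.162, 0.0804 and 0.107.

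Some regulators of mitotic entry and of the anaphase-promoting complex were also lower in non-degradable PEG than in Matrigel. Of 15 entry regulators, 5 were lower and 0 higher, beside 7.13% and 9.71% of all tested genes, with a median of -0.24. Only 1 of them was lower without Matrigel replicate 1, Matrigel replicate 2 or non-degradable PEG replicate 3. The kinases Melk (-0.35 ± 0.0738, adjusted p = 0.00849) and Pbk (-0.39 ± 0.0933, adjusted p = 0.016) had the smallest p-values. Cks2, a small subunit of Cdk complexes, was lower with an adjusted p near the threshold (-0.32 ± 0.101, adjusted p = 0.0491). Wee1, the kinase that inhibits Cdk1, stood at 34.5, 33.8 and 32.1 CPM in non-degradable PEG, 41.8, 31 and 37.7 CPM in degradable PEG and 42, 40 and 36.5 CPM in Matrigel, and did not pass (-0.24 ± 0.104, adjusted p = 0.137). Of 18 subunits and regulators of the anaphase-promoting complex, 4 were lower, beside 7.13% of all tested genes, and 0 higher with a median of -0.20, and 0 were lower without non-degradable PEG replicate 3. They were led by the subunits Cdc16 (-0.26 ± 0.0611, adjusted p = 0.0159) and Anapc5 (-0.39 ± 0.0999, adjusted p = 0.0221), and in degradable PEG 1 of 18 was lower, near the 4.79% of all tested genes. It was Anapc7 (-0.23 ± 0.0662, adjusted p = 0.0485), a call lost in 8 of 9 fits without 1 library. Pttg1, securin, the substrate whose removal frees separase, stood at 31.1, 32.5 and 30.9 CPM in non-degradable PEG, 33.9, 40.6 and 32.4 CPM in degradable PEG and 33.3, 31.7 and 35.4 CPM in Matrigel. Its gels overlapped and it did not pass (-0.09 ± 0.0908, adjusted p = 0.542). Leaving out 1 library ended the non-degradable PEG call of Cks2 in 7 of 9 fits and those of Cdc16, Anapc5 and Pbk in 3 each, with adjusted p-values up to 0.194, 0.0797, 0.0926 and 0.0576.

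Among the transcription factors known to act on such promoters, Foxm1 was called and Mybl2 was not. Foxm1, the forkhead factor that binds with MuvB, stood at 90.4, 94.2 and 78.9 CPM in non-degradable PEG, 113, 104 and 89.9 CPM in degradable PEG and 134, 119.8 and 119 CPM in Matrigel. Foxm1 was lower in non-degradable PEG than in Matrigel (log2 fold change -0.50 ± 0.0965 SE, adjusted p = 0.0056) and did not pass in degradable PEG (-0.28 ± 0.0963, adjusted p = 0.0802). Mybl2, B-Myb, stood at 58, 57.1 and 47.2 CPM in non-degradable PEG, 68.5, 68.4 and 60.5 CPM in degradable PEG and 55.3, 59.9 and 53.3 CPM in Matrigel. It was not called in non-degradable PEG (-0.06 ± 0.0921, adjusted p = 0.718) or in degradable PEG (0.23 ± 0.0919, adjusted p = 0.136), where its difference from Matrigel was above 0. E2f1, which drives genes of S phase, stood at 49, 44.9 and 40 CPM in non-degradable PEG, 51, 51.2 and 46.8 CPM in degradable PEG and 54, 53.2 and 49.3 CPM in Matrigel, and did not pass (-0.23 ± 0.0839, adjusted p = 0.0875 for non-degradable PEG against Matrigel). Among all 21 transcription factors and subunits of DREAM, 3 were called lower for non-degradable PEG against Matrigel, beside 7.13% of all tested genes. Rbbp4, a histone-binding subunit of MuvB, was the first of them by p (-0.37 ± 0.0637, adjusted p = 0.00307). Only E2f5, a repressive E2F factor, was higher (0.24 ± 0.0697, adjusted p = 0.0404), beside 9.71% of all tested genes. A single higher call among 21 genes is below that share and is no result about the list. That call of E2f5 was lost in 7 of 9 fits without 1 library, with an adjusted p up to 0.166. In degradable PEG 1 of 21 was lower, near the 4.79% of all tested genes. It was Tfdp2, a partner of E2F factors (-0.34 ± 0.0759, adjusted p = 0.0149), and not without Matrigel replicate 1 (0.0581). Without 1 library these counts of lower genes were 2 to 6 in non-degradable PEG and 0 to 7 in degradable PEG.

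DNA replication genes, set beside the mitotic genes as the other large group of cycling cells, were lower in non-degradable PEG than in Matrigel for 24 of 35 and higher for 0, with a median of -0.33. Of all tested genes, 7.13% were lower and 9.71% higher there. Prim1, the primase subunit (-0.51 ± 0.0771, adjusted p = 0.0015), and Rpa2, which binds single-stranded DNA (-0.43 ± 0.0831, adjusted p = 0.00578), led by p. In degradable PEG 2 of 35 were lower than in Matrigel, near the 4.79% of all tested genes. They were the same 2 genes (-0.33 ± 0.0769, adjusted p = 0.0184 and -0.30 ± 0.0829, adjusted p = 0.0397). The mean log2 CPM of the 42 mitotic genes minus that of the replication genes was 0.24, 0.29 and 0.23 in the non-degradable PEG libraries, 0.23, 0.17 and 0.21 in degradable PEG and 0.34, 0.30 and 0.31 in Matrigel. The PEG gels lay below Matrigel without overlap, but non-degradable PEG replicate 2 at 0.29 was close to Matrigel replicate 2 at 0.30. This difference between the gels was not tested. Chaf1b, a chromatin assembly factor, was the 1 gene of this list called between the PEG gels (log2 fold change -0.35 ± 0.0678 SE, adjusted p = 0.0352), beside 0.464% of all tested genes lower. The count of 24 was 4 without non-degradable PEG replicate 3, and the call of Chaf1b was lost in 6 of 9 fits without 1 library, with an adjusted p up to 0.109. Those of Prim1 and Rpa2 in degradable PEG were lost in 4 and 6 of 9 fits.

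Some of the 42 share exon bases with other annotated genes or have pseudogenes named after them, and the strand setting of the counting is not given in the sources used here. Of 32 genes without exon overlap, 25 were called lower for non-degradable PEG against Matrigel. Of 10 with overlap, 9 were. The largest shares of overlapped exon bases were 29.3% for Kif20a with Cdc23, 22.8% for Ube2c with Tnnc2 and 15.1% for Kif4 with Pdzd11. Pseudogenes Ccnb1-ps, Ccnb2-ps, Kif22-ps and Kif4-ps are annotated, so the levels of their parent genes are uncertain as far as reads were shared.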

How the data were processed

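RNA from 9 libraries of mouse intestinal stem cells was analysed from gene tables deposited by the authors, which hold raw read counts per gene, not normalized. Per the labels' protocols, a stranded TruSeq mRNA kit was used. Per the submitters' processing notes, the tools were cutadapt 1.3, STAR 2.4.2a and HTSeq 0.6.1, with the build GRCm38. The sources used here name neither the annotation nor the strand setting of the counting. The 5 tally rows of each table were removed; reads without a feature were 7.29% to 11.2% of the assigned, featureless and ambiguous reads.

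Symbols and coordinates came from GENCODE M21, which named 46005 of 46517 genes. After filterByExpr, 14870 genes entered 1 edgeR quasi-likelihood fit of all 9 libraries (edgeR 4.0.16, R 4.3.3, limma 3.58.1), with 1 mean per matrix, trimmed mean of M values scaling and 6 residual degrees of freedom. Benjamini-Hochberg adjustment covered the 14870 genes of a comparison, with a threshold of 0.05. Standard errors were computed from the log2 fold change and its F statistic. Library pairs within a matrix differed by more than sampling noise (chi-square per degree of freedom at least 10.2). The fit was tested on simulated counts.

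The members, the gene lists and the tests were chosen with earlier results of these data known. Every member may be named; values in all libraries are given for Mki67, the 2 members of each role with the highest mean CPM, and the 4 smallest and 2 largest p-values of each comparison. From other lists, the 2 called genes with the smallest p per comparison are named, with Foxm1, Mybl2, E2f1, Pttg1, Wee1 and Cks2. E2f5, Itgam, Tubb3, Smoc2, Ascl2, Olfm4, Lgr5 and Krt19 were named after their values were seen. Alternatives were other scalings and filters, DESeq2 1.42.0, fits of 2 matrices, a replicate block and leaving out each library; leaving out 2 libraries together and the alternatives of the 3-matrix test and of the other lists were chosen after seeing the data.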

Additional observations from a re-analysis of the deposited data

How the results depend on the processing

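The count of 34 mitotic genes lower in non-degradable PEG than in Matrigel was 30 to 40 under the 7 settings that kept all libraries of both gels, 17 to 38 when 1 library was left out and 2 when Matrigel replicate 1 and non-degradable PEG replicate 3 were left out together. Over all tested genes, 1060 were called lower in the main fit, 394 to 1527 without 1 library and 238 without the 2 libraries together. Fewer samples lower the power of the last fits, and the share of the loss this accounts for was not tested. With upper-quartile scaling the calls of Aurka and Aurkb ended (adjusted p = 0.0552 and 0.0553), and with a filter of 10 CPM those of Aurka, Aurkb, Kif20b and Cenpe (0.0591, 0.0636, 0.0557 and 0.0582). For degradable PEG against Matrigel the count of 2 was 1 with upper-quartile scaling, 9 with no filter, 1 with a filter of 10 CPM, 5 with DESeq2, 4 in a fit of both gels only, 13 with the replicate block, 0 to 8 without 1 library and 0 without the 2 libraries together. Lower calls over all tested genes in that comparison were 712 of 14870 in the main fit, 535 of 14870 with upper-quartile scaling, 956 of 25392 with no filter and 1231 of 14870 with the block. The cause of these differences was not tested. For the test over the 3 matrices, the count of 25 was 39 with the replicate block, 6 to 31 without 1 library and 1 without the 2 libraries together. No gene was called between the PEG gels by edgeR or DESeq2 under any alternative, and none was called higher in any comparison.

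Equal replicate numbers were not taken to pair the libraries, since the deviations of same-numbered libraries correlated over 0.1 in 7 of 9 pairs and not in all. The values were 0.258 to 0.331 for number 1, 0.0197 to 0.176 for number 2 and 0.186 to 0.511 for number 3. Of the 9 libraries, 8 correlated best with a library of their own number, a hint from the data and not from the design. With the replicate block, 40 of the 42 genes were lower in non-degradable PEG than in Matrigel, 13 in degradable PEG than in Matrigel and 0 between the PEG gels. The 6 genes gained in the first count were Mki67, Ccna2, Kif23, Cenpa, Cenpf and Hmmr (adjusted p = 0.0257, 0.00803, 0.00379, 0.0296, 0.0304 and 0.0327). Of all 14870 tested genes, the block called 1786, 1231 and 188 lower in these comparisons, against 1060, 712 and 69 in the main fit.

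All 42 fold changes of non-degradable PEG against Matrigel kept their sign under each alternative. Signs of uncalled values turned in 21 cases, none past the threshold. Without 1 library, Anln ran from -0.19 to 0.05 for degradable PEG against Matrigel. Between non-degradable and degradable PEG, Mki67 ran from -0.20 to 0.05, Kif11 from -0.14 to 0.02, Kif20b from -0.11 to 0.05, Cenpa from -0.13 to 0.09, Cenpe from -0.20 to 0.02, Cenpf from -0.19 to 0.06, Spc24 from -0.16 to 0.05 and Anln from -0.22 to 0.01. The values above 0 came without non-degradable PEG replicate 3 or degradable PEG replicate 1, and for Anln against Matrigel without degradable PEG replicate 2. Without the 2 libraries together, Mki67 was at 0.05, Kif11 at 0.02, Kif20b at 0.03, Cenpa at 0.09, Cenpe at 0.02, Cenpf at 0.06 and Spc24 at 0.04 between the PEG gels. Between the PEG gels the 42 fold changes had a median of -0.18 and a median standard error of 0.0937, and none passed. Why none passed was not tested.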

Other observations

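E2f5 stood at 36.8, 35.3 and 38.6 CPM in non-degradable PEG, 33.6, 35.1 and 35.9 CPM in degradable PEG and 32.8, 30.2 and 31.1 CPM in Matrigel. Its order over the gels is the opposite of that of the 42 mitotic genes, and its values in both PEG gels lay above those of Matrigel without overlap. Mybl2 had its highest values in degradable PEG, with the order of its means unlike that of any of the 42 genes.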
